A study of Mus musculus with 141 samples.

Results

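CpG methylation of 10 T-box genes was read in mouse glioma cells from single-cell reduced representation bisulfite sequencing. The genes were Tbx1, Tbx2, Tbx3, Tbx4, Tbx5, Tbx15, Tbx18, Tbx20, Tbr1 and Eomes, which are 10 of the 21631 protein-coding genes of the annotation. Every position of the methylation table inside these genes, or within 1 kb of either end, was taken. This gave 1494 of the 1416034 positions of the table, or 1388 CpGs once both strands of a CpG were merged. The cells are a mouse glioma line with the R132H mutation of IDH in both arms, a mutation whose enzyme product inhibits the TET demethylases. The AG-881 arm holds 67 cells grown with 1 µM of this inhibitor of mutant IDH, and the DMSO arm 74 cells grown with the vehicle alone, each for more than 2 weeks. Live cells, positive for calcein and negative for TO-PRO-3, were sorted singly, and the libraries formed 4 pools per arm (numbered 1 to 4 in the AG-881 arm and 5 to 8 in the DMSO arm). The labels name 1 cell line and no separate cultures, so each arm is 1 culture, no difference has a replicate check and no test was made. Library pool and arm cannot be told apart, since no pool holds cells of both arms.

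T-box proteins are transcription factors that share a DNA-binding domain, the T-box, and they act in the embryo as dose-sensitive regulators of mesoderm, heart, limb and brain. Their genes lie in CpG-rich sequence that is held by Polycomb in cells that do not use them, and such genes often gain DNA methylation in tumours. The ancient gene pairs Tbx2 with Tbx4 and Tbx3 with Tbx5 are neighbours in the mouse genome, and Tbx2 and Tbx4 lay 44.4 kb apart on chromosome 11 and Tbx3 and Tbx5 112 kb apart on chromosome 5. In the forebrain, Eomes marks the intermediate progenitors of cortical neurons and Tbr1 the early-born neurons that follow them, while the other members are best known outside the brain.

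The promoter sequences that follow are shown because they hold the most CpGs with a call among the 7 promoter entries that RefSeq (GRCm38.p6) gives for 6 of the members. Each runs from 250 bases before to 50 bases after an annotated start, 5′ to 3′ on the strand of the gene, and capitals mark CpGs with a call in at least 1 cell. Tbx1 has a pair of annotated starts on the minus strand, with promoters at chr16:18588850-18589149 and chr16:18590622-18590921. The Tbx20 promoter lies on the minus strand at chr9:24774254-24774553.
Tbx1 inner start: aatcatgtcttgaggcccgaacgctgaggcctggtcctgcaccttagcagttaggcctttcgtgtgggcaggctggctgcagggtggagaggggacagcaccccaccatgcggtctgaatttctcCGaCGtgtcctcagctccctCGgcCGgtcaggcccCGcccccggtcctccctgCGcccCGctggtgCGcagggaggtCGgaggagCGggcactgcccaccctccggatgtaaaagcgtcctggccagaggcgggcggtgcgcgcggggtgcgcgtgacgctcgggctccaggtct
Tbx1 outer start: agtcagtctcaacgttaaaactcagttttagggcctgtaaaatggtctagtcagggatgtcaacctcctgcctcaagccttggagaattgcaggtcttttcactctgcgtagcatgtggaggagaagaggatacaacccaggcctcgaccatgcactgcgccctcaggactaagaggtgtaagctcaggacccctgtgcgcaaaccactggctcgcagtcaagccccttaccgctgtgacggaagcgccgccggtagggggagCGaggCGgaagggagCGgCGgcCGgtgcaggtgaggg
Tbx20 start: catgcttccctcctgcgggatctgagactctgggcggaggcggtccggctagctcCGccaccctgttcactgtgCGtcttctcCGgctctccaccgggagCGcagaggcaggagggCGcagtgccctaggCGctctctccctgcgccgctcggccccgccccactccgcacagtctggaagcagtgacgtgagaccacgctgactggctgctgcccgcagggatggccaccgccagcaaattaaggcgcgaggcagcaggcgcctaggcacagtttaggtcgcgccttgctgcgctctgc
At the inner Tbx1 start, 10 of 26 CpGs had calls, and 92% of 25 calls were methylated under AG-881, against 85% of 20 calls under DMSO. At the outer Tbx1 start, 5 of 16 CpGs had calls, with 5 calls in each arm, of which 100% were methylated under AG-881 and 60% under DMSO. At the Tbx20 start, 6 of 26 CpGs had calls, and 77.8% of 9 calls were methylated under AG-881, against 50% of 6 calls under DMSO. These few calls show methylated copies of both promoters in each arm and cannot resolve a difference between the arms. The promoters of Tbr1, Tbx18 and Eomes, with 7, 15 and 10 CpGs, had no call, so values at these genes come from sequence beside the promoter. The letters TCACACCT, the core of the site that T-box proteins bind, were in none of the 7 entries on either strand, and in 1.28% of all 32851 promoters.

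Depth set which members could be compared. AG-881 cells had calls at a median of 89440 CpGs each (23895 to 190259), and DMSO cells at a median of 67749 CpGs each (10438 to 165853). Arms were compared at shared CpGs, those with calls in 5 or more cells per arm, of which the T-box genes held 345. A gene or region was measured if it had at least 50 calls and 10 cells in each arm at these CpGs. By this rule 8 of the 10 members were measured, as were 11653 of all genes. Tbx20, a heart regulator, had 1 such CpG and Tbr1 had 4, so neither was measured. The level is the percentage of calls that are methylated, with exact (Clopper-Pearson) 95% intervals that cover counting error only and treat the calls of 1 cell as independent.

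Over whole genes, the T-box genes were more methylated in the DMSO arm than most genes, as were other developmental genes. The median level of the 8 measured members was 47.2% in DMSO cells, against 9.30% over all 11653 measured genes, and each member lay at or above the percentile 69.6 of all genes. The median DMSO level was 51.1% in 7 measured limb and body wall partners of T-box factors, 43.5% in 8 cardiac partners, 39.5% in 6 reported targets and 28.9% in 12 cortical neurogenesis genes, so a high level was not particular to the T-box genes. In gene bodies without the 1 kb at either end, the median DMSO level was not above that of all genes. It was 53.1% over 7 members and 65.2% over 3382 genes. Over whole genes Tbx4, a hindlimb and lung regulator, was highest at 84.8% (interval 76.4 to 91), followed by Tbx1, a pharyngeal arch and outflow tract regulator, at 69.4% (interval 59.8 to 77.9). Within 1 kb of a start taken from the RefSeq promoters Tbx4 had 0 of its 15 shared CpGs and Tbx1 had 1 of 19, so these levels come from elsewhere in the genes. For Tbx4 this includes 3 CpGs at chr11:85886355-85886403, across the upstream end of the annotated gene, which that start leaves out. They had 77.4% of 31 calls methylated under AG-881 and 75% of 24 calls under DMSO, too few to be measured. Next came Tbx5, the forelimb and heart regulator mutated in Holt-Oram syndrome, at 53.6%, and Tbx18, a gene of the epicardium and sinus node, at 49.3%. Eomes had 45.1% and the repressors Tbx2 and Tbx3 had 39.8% and 34.5%. Tbx15, a gene of skeleton, skin and fat, was lowest at 24.5% (interval 20.9 to 28.4). Along this order the intervals of neighbours overlapped except between Tbx1 and Tbx5 and between Tbx3 and Tbx15. At all CpGs with any call, Tbr1 was the most methylated of the 10 genes in both arms, with 96.9% of 162 calls in 34 AG-881 cells and 93.8% of 208 calls in 32 DMSO cells. Tbx20 had 46.7% of 60 calls in 19 AG-881 cells and 62% of 50 calls in 13 DMSO cells, with intervals that overlap.

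Over whole genes, none of the 8 measured members differed between AG-881 and DMSO by more than counting error. Pooled over the members, 43.5% of 2739 calls were methylated under AG-881 and 43.4% of 2578 calls under DMSO, differing by 0.0750 percentage points (interval -2.62 to 2.77). At all shared CpGs of the table the levels were 25.4% under AG-881 and 26.8% under DMSO, differing by -1.32 points. Pools within an arm lay further apart than the pooled arms: the T-box level was 40.3%, 38.3%, 49.8% and 45% in the AG-881 pools and 44.8%, 37.8%, 48% and 40.9% in the DMSO pools. Pool 3 was the highest AG-881 pool here and at all shared CpGs, where the AG-881 pools had 23.6%, 24.7%, 28.4% and 25% and the DMSO pools 27.6%, 25.8%, 26.8% and 26.5%.

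Of the 8 measured members, 4 were lower and 4 higher under AG-881, beside 55.1% of all measured genes that were lower by any amount and 36.6% that were higher. None passed 10 points in either direction, beside 4.5% of all genes lower and 1.64% higher by at least 10 points. The largest decrease was at Eomes, with 41.6% of 154 calls under AG-881 and 45.1% of 142 calls under DMSO, differing by -3.51 points (interval -15.1 to 8.20). Its pools overlapped widely, at 36.8%, 56.1%, 53.8% and 20% under AG-881 and 48%, 25%, 58.3% and 36.4% under DMSO. Its difference turned to 1.70 points without pool 4 and to 0.992 points without pool 7. Tbx5 followed with 50.4% and 53.6% (-3.19 points, interval -10.3 to 3.98). The largest increase was at Tbx18, with 53.1% of 437 calls under AG-881 and 49.3% of 432 calls under DMSO, differing by 3.78 points (interval -3.02 to 10.6). At Tbx18 the AG-881 pools had 45.2%, 53.8%, 68.8% and 44.6% and the DMSO pools 38%, 39.5%, 69.2% and 50.4%, so pools 3 and 7 stood above the others of their arms. Without these pools, a setting chosen after the values were seen, the Tbx18 difference was 4.92 points. It turned to -1.61 points without pool 3 and to -1.04 points without pool 5, and was 10.3 points without pool 7. The other members moved by less than these: Tbx1 (71.6% under AG-881 and 69.4% under DMSO), Tbx4 (86.9% and 84.8%), Tbx2 (38.4% and 39.8%), Tbx3 (33.5% and 34.5%) and Tbx15 (25% and 24.5%). The Tbx1 difference of 2.11 points was 13.1 points without pool 2, and it was negative without pool 1, 3, 4, 6 or 8, at -2.34 points without pool 4. At all 8 members the interval of the difference included 0. At none did every AG-881 pool lie on 1 side of every DMSO pool, beside 1.3% of all genes with every AG-881 pool below and 0.403% with every one above. Of 1021 genes with a mean of both arms of 40 to 60%, 667 were lower under AG-881 and the median difference was -2.77 points, while of the 3 members in that range 2 were lower and 1 higher.

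**Figure D1:**
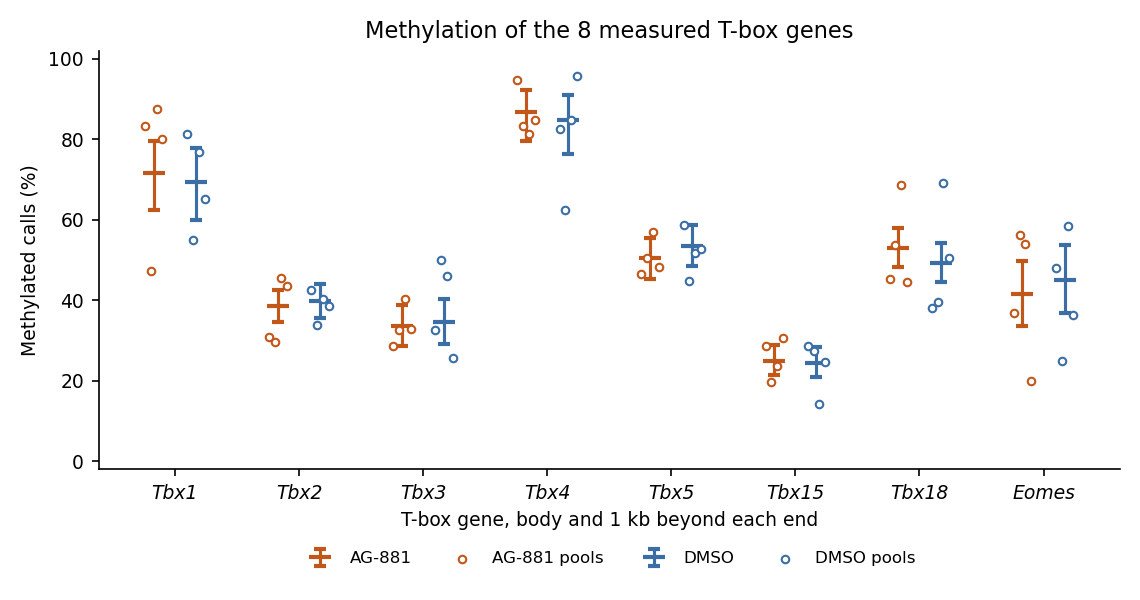
Percentage of methylated calls over each measured T-box gene and 1 kb beyond its ends, under AG-881 left and DMSO right of each name; dashes with bars give the pooled level and its exact 95% interval, open circles the 4 library pools of each arm. The pooled levels of the arms lie within 3.78 points of each other at every gene, and the pools spread more widely.

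The value of a gene depended on which CpGs entered. At CpGs with calls in 10 or more cells per arm, where the DMSO level was 32%, the pooled difference of the members was 6.40 points. Tbx3 had 43.6% under AG-881 and 33.5% under DMSO over every CpG with a call, differing by 10.1 points, against -0.955 points at the shared CpGs. Its 89 CpGs outside the shared set had 58.8% of 228 AG-881 calls and 32.2% of 202 DMSO calls methylated, and these CpGs need not be the same in both arms.

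Within the genes, methylation was read separately in the window of 1 kb either side of the start, at the other end and in the rest of the gene. For Tbx2, Tbx3, Tbx5 and Tbx15 the window was set at the end with more CpGs of the table. Start windows of 6 members were measured, and their median DMSO level was 44.3%, against 0.893% over 9586 start windows of all genes. It was 41.1% over 6 start windows of cardiac partners and 27.1% over 6 of reported targets. Over 5 start windows of limb and body wall partners it was 26.3%, and over 7 of cortical neurogenesis genes 20.9%. Among the members Tbx2 was the exception, with 3.49% of 229 calls under AG-881 and 5.03% of 199 calls under DMSO (-1.53 points, interval -6.01 to 2.64). The others ran from Tbx3, with 24.9% under AG-881 and 21.9% under DMSO, to Tbx5, with 63.2% under AG-881 and 55.7% under DMSO. None of the 6 passed 10 points, beside 3.37% of all start windows lower and 0.928% higher by that much. The start window of Tbx18 came closest, with 52.8% of 193 calls under AG-881 and 43.6% of 172 calls under DMSO (9.25 points, interval -1.41 to 19.7). Its AG-881 pools had 59.1%, 55.6%, 74.6% and 35.3% and its DMSO pools 19.4%, 24.1%, 80.6% and 45.1%, with pool 7 above all of them. The difference was -0.321 points without pool 3, 23.1 without pool 4, 2.85 without pool 5 and 19 without pool 7. Pooled over the members, start windows had 35.9% under AG-881 and 33.9% under DMSO, differing by 2.02 points (interval -2.40 to 6.41). The 4 CpGs of the Tbr1 start window had 92.3% of 26 calls methylated under AG-881 and 82.8% of 29 calls under DMSO.

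Tbx2 is a repressor that sets the boundary of chamber muscle in the heart and holds back cell cycle inhibitors. Its pooled differences had opposite signs in the gene body and at 1 end, in neither place with the pools of the arms apart. In the gene body 69.5% of 249 calls were methylated under AG-881 and 60.6% of 246 calls under DMSO, differing by 8.91 points (interval 0.227 to 17.5). At the end away from the CpG-denser end, 40.9% of 115 calls were methylated under AG-881 and 56.5% of 108 calls under DMSO, differing by -15.6 points (interval -28.8 to -1.87). In the body the AG-881 pools had 63.3%, 55.2%, 74.4% and 72.9% and the DMSO pools 61.5%, 64.5%, 59.1% and 58.6%. At the far end the AG-881 pools had 44.7%, 38.9%, 47.8% and 33.3% and the DMSO pools 45.7%, 42.9%, 71.9% and 60.9%. The pools of the arms overlapped in both places. The difference at the far end was -9.13 points without pool 7 and -23.6 points without pool 5, and that in the body was 0.704 points with equal weight per CpG and 1.72 points with windows of 500 bp. The Tbx2 far end was the single measured one among the members, and 6.26% of all 479 measured far ends, whose median DMSO level was 5.71%, were lower by at least 10 points. Of 28 far ends with a mean of both arms of 40 to 60%, 20 were lower by any amount, with a median difference of -7.15 points. The bodies of the other measured members differed by less than counting error, from Tbx5, with 45% under AG-881 and 51.7% under DMSO, to Tbx15, with 20.1% under AG-881 and 18.8% under DMSO. Over the bodies of 7 members, none passed 10 points, beside 6.95% of all gene bodies lower and 3.78% higher.

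The T-box genes and all protein-coding genes lay furthest apart where CpGs are dense, a comparison not made for the partner and target lists. CpGs with 20 or more CpGs of the table within 100 bp had 42.3% (interval 38.4 to 46.2, 634 calls) under AG-881 and 37.6% (interval 33.7 to 41.6, 599 calls) under DMSO in T-box genes. The same class over all protein-coding genes had 4.14% under AG-881 and 4.92% under DMSO. With 10 to 19 CpGs in that distance T-box genes had 35.3% under AG-881 and 36.3% under DMSO, and all genes 8.06% and 8.95%. The class with 1 to 4 CpGs of the table in that distance did not stand apart, with 57.8% and 61.2% in T-box genes and 58.6% and 59.7% in all genes. The difference between arms in the densest class, 4.71 points higher under AG-881 in T-box genes, had an interval of -0.875 to 10.3.

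**Figure D2:**
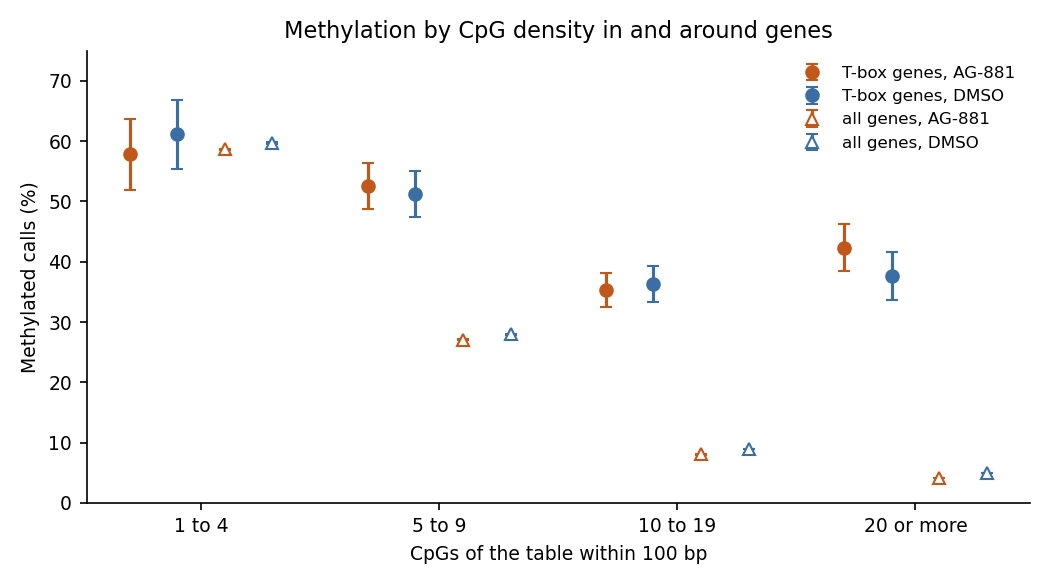
Percentage of methylated calls by the number of CpGs of the table within 100 bp, for T-box genes (filled circles) and all protein-coding genes (open triangles), AG-881 in orange and DMSO in blue, with exact 95% intervals. T-box genes stay between 35.3% and 61.2% across the classes, while all genes fall to 4.14% and 4.92% in the densest class.

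CpGs were then grouped into blocks, runs of at least 3 shared CpGs with gaps of at most 200 bp. The members held 34 blocks, of which 12 were measured, in 7 genes. Of these, 4 were lower and 8 higher under AG-881, beside 48.3% of all measured blocks that were lower and 30.4% that were higher. By at least 10 points, 2 were lower and 0 higher, beside 4.5% of 11576 measured blocks of all genes that were lower and 1.31% that were higher by as much. Most T-box blocks lie at intermediate levels. Of the 1665 blocks of all genes with a mean of both arms of 20 to 80%, 1086 were lower and 577 higher by any amount. By at least 10 points, 22.8% of these 1665 blocks were lower and 6.37% higher. Of the 10 T-box blocks in that range 2 were lower by as much, which lies near this share. The T-box blocks outside that range, nearly unmethylated ones of Tbx2 and Tbx15, were higher by 0.726 and 0.904 points.

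The block that differed most lies inside Tbx3, a repressor of the mammary gland, limb and conduction system, 10.3 kb from the CpG-denser end at chr5:119680807-119680885. Its 7 CpGs span 79 bp, and 46.8% of 79 calls in 21 cells were methylated under AG-881, against 82.4% of 51 calls in 13 cells under DMSO. The difference was -35.5 points (interval -50.1 to -17.9), and the intervals of the arms, 35.5 to 58.4 under AG-881 and 69.1 to 91.6 under DMSO, did not overlap. Of all measured blocks, whose median DMSO level was 0.976%, 1.49% were lower by at least 10 points with intervals apart. That share was not computed for blocks with a mean of 20 to 80%, of which 22.8% were lower by at least 10 points. The AG-881 pools had 50%, 50%, 41.2% and 46.4%. The DMSO pools had 72.2%, 85.7%, 57.1% and 100% on 18, 7, 7 and 19 calls, so every AG-881 pool lay below every DMSO pool. This was the case at 1.18% of all measured blocks and at 2.28% of those with a mean of 20 to 80%. The level was lower under AG-881 at 7 of the 7 CpGs, from 28.6% to 87.5% under AG-881 and from 62.5% to 100% under DMSO. In single cells, the median level was 33.3% over the 21 AG-881 cells, 8 of which had at least 50% of their calls methylated, and 100% over the 13 DMSO cells, 11 of which did. Cells had a median of 4 calls here in both arms. The difference ranged from -41.0 to -25.0 points when each pool was left out in turn, though without any DMSO pool fewer than 50 DMSO calls remained. The start block of Tbx3, 0.652 kb from the CpG-denser end, went the other way within counting error, with 24.3% under AG-881 and 17% under DMSO.

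The second block lies beyond the far end of Tbx2, at chr11:85842075-85842173, and ends 225 bp past the annotated gene. It holds 12 of the 14 shared CpGs of the Tbx2 far end described above, so it is not a separate observation. Its 12 CpGs had 33% of 97 calls in 16 cells methylated under AG-881 and 53.1% of 98 calls in 14 cells under DMSO, differing by -20.1 points (interval -33.8 to -5.48). The AG-881 pools had 41.7%, 37.5%, 35.3% and 17.9% and the DMSO pools 40%, 42.9%, 67.9% and 60.9%, so pool 5 lay within the range of AG-881. Of its CpGs, 9 were lower, 2 higher and 1 equal. The difference ranged from -29.1 to -13.9 points when each pool was left out in turn. The Tbx2 block near the CpG-denser end was nearly unmethylated in both arms, with 5.19% of 154 calls under AG-881 and 4.47% of 179 calls under DMSO.

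**Figure D3:**
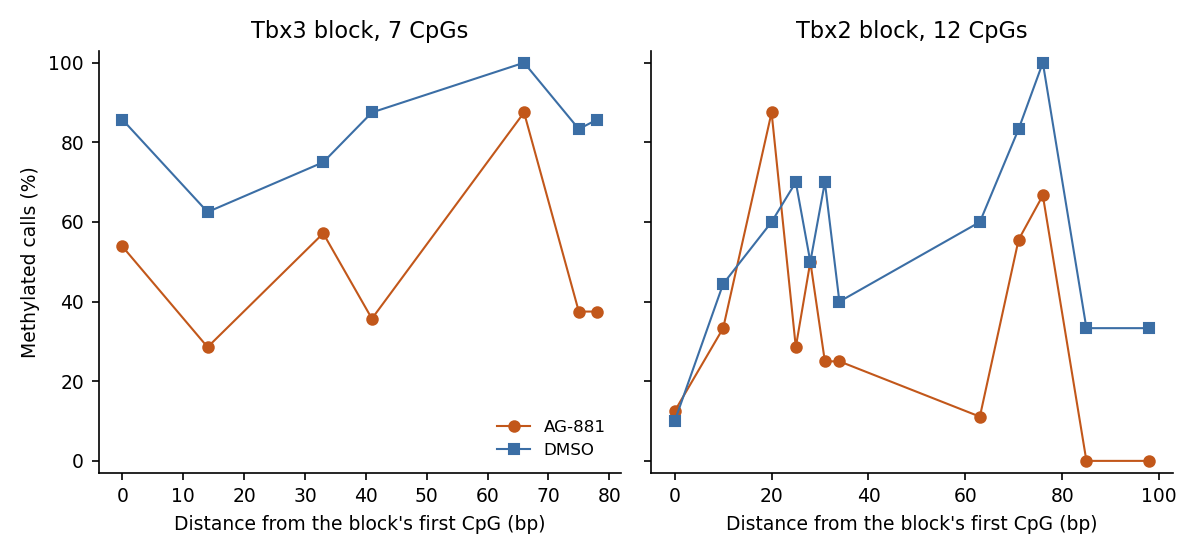
Percentage of methylated calls at each CpG of the Tbx3 block (left) and the Tbx2 block (right) against the distance from the block's first CpG, AG-881 in orange circles and DMSO in blue squares. In the Tbx3 block AG-881 is lower at all 7 CpGs, and in the Tbx2 block at 9 of 12; each point rests on 5 to 14 calls.

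Neighbouring blocks of 1 gene could differ as widely as the genes did. Tbx15 had a block of 18 CpGs 0.896 kb from its CpG-denser end with 55.8% of 165 calls methylated under AG-881 and 54.5% of 167 calls under DMSO. A block of 37 CpGs further inside the gene, at chr3:99253631-99254450, had 1.21% of 330 calls under AG-881 and 0.308% of 325 calls under DMSO. At this inner block 32 of 36 AG-881 cells and 42 of 43 DMSO cells had no methylated call. Tbx5 had 63.2% under AG-881 and 55.7% under DMSO at 0.286 kb, and 30.7% under AG-881 and 36.1% under DMSO at 8.25 kb. The other blocks were Tbx1 inside the gene (65.8% under AG-881 and 69.2% under DMSO), Eomes beside its start (52.3% and 48.3%) and a pair in Tbx18. The smaller Tbx18 block, 12 CpGs at 1.69 kb from the start, had 83.1% under AG-881 and 75% under DMSO. None of these passed 10 points, and at each the interval of the difference included 0.

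**Figure D4:**
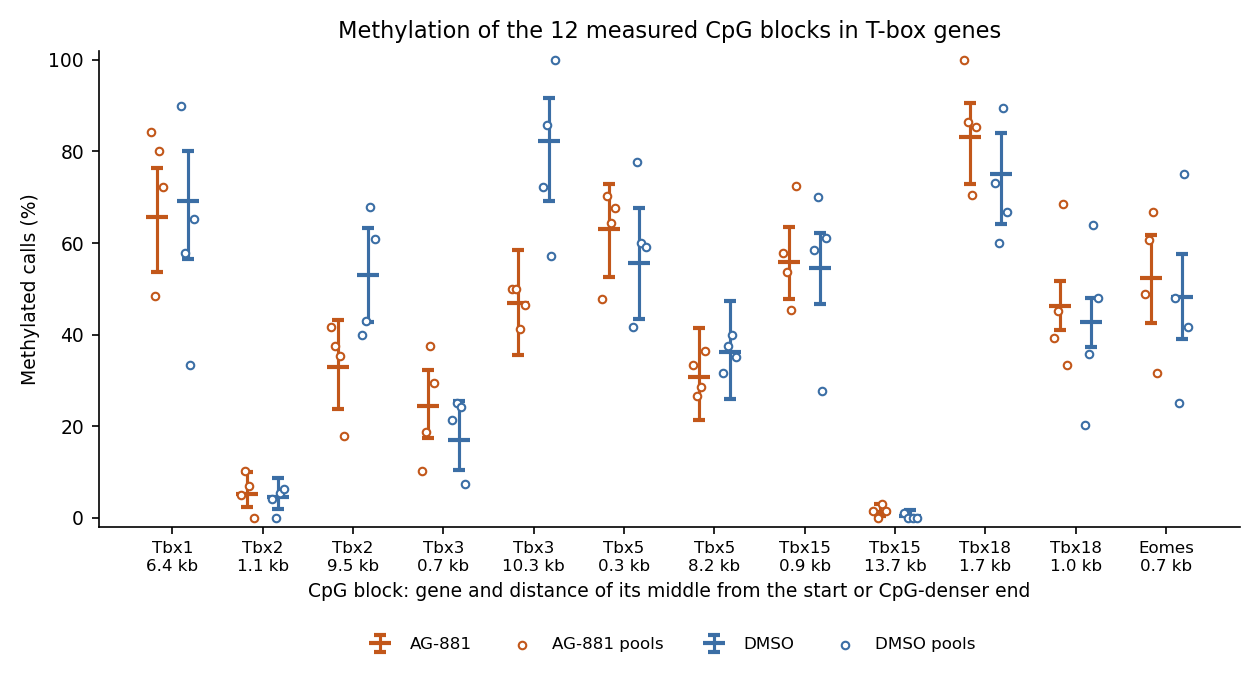
Percentage of methylated calls in the 12 measured CpG blocks, AG-881 left and DMSO right, with exact 95% intervals and open circles for the 4 library pools of each arm. The intervals of the arms are apart at the Tbx3 block 10.3 kb from the CpG-denser end, and at the Tbx2 block 9.5 kb away the AG-881 pools lie between 17.9% and 41.7% and the DMSO pools between 40% and 67.9%.

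The larger Tbx18 block, 42 CpGs at chr9:87729989-87730582 and 0.974 kb from the start, had enough calls to be read cell by cell. Its level was 46.2% of 346 calls under AG-881 and 42.6% of 340 calls under DMSO, differing by 3.60 points (interval -4.04 to 11.2). Cells with at least 5 calls ranged from none to all of their calls methylated in both arms: of 32 AG-881 cells 2 had all and 5 none methylated, and of 30 DMSO cells 3 had all and 9 none. The AG-881 pools had 39.3%, 45.2%, 68.5% and 33.3% and the DMSO pools 20.2%, 35.7%, 64% and 48%. Pools 3 and 7 thus stood apart inside their arms by more than the arms differed, and the difference was -4.13 points without pool 3 and -3.76 points without pool 5. The median cell had 75% in pool 3 and 56.8% in pool 7.

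**Figure D5:**
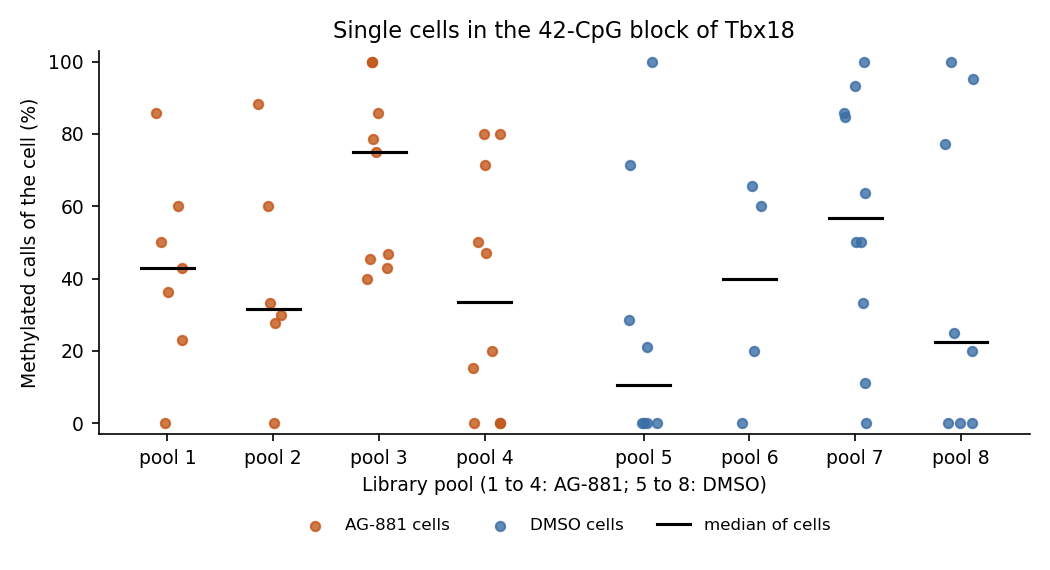
Percentage of methylated calls of each cell with at least 5 calls in the 42-CpG block of Tbx18, by library pool, AG-881 pools left and DMSO pools right; black lines are medians of cells. The median is 75% in AG-881 pool 3 and 56.8% in DMSO pool 7, above the other pools of each arm.

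Over all 12 blocks, single cells carried mixtures of methylated and unmethylated calls beside blocks with all or none methylated. Of 168 pairs of an AG-881 cell and a block with at least 5 calls, 62.5% had part of their calls methylated, and of 161 DMSO pairs 48.4%. All calls were methylated in 5.36% of AG-881 pairs and 11.8% of DMSO pairs, and none in 32.1% of AG-881 pairs and 39.8% of DMSO pairs. With 5 calls drawn from each pair the shares with part of their calls methylated were 56% under AG-881 and 42.4% under DMSO, and pairs had a median of 7 calls in both arms. Without that draw, these shares ranged from 58.1% to 70% over the AG-881 pools and from 45.2% to 52.4% over the DMSO pools. Leaving out the Tbx2 start block and the inner Tbx15 block, which are nearly unmethylated, the shares were 78.6% under AG-881 and 65.8% under DMSO, and the pools then overlapped (75% to 83.8% under AG-881 and 56.2% to 85.7% under DMSO). Cells of 1 pool share a library, and these shares were not tested. Summed over the members, 56 AG-881 cells with at least 20 calls had 43.8% ± 14.2 (SD over cells) methylated, with a range of 20.8% to 84.8%, and 54 such DMSO cells had 42.7% ± 16.4, with a range of 15.6% to 80.5%.

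Other T-box genes were read the same way. Of 7, 4 were measured, 3 of them lower and 1 higher under AG-881, beside 55.1% of all measured genes lower and 36.6% higher. By at least 10 points 2 were lower and 0 higher, beside 4.5% of all measured genes lower and 1.64% higher. Most measured genes lie low, with a median DMSO level of 9.30%, and these shares were not computed for genes at like levels. Of 1021 genes with a mean of both arms of 40 to 60%, where T lies, 667 were lower by any amount, with a median difference of -2.77 points. T, the brachyury gene of the notochord and primitive streak, had 38.1% of 344 calls under AG-881 and 54.1% of 294 calls under DMSO, differing by -16.0 points (interval -23.8 to -8.04). Its AG-881 pools had 37.2%, 46.4%, 34.7% and 34.4% and its DMSO pools 52.3%, 46.3%, 63.8% and 50.6%, an overlap of 1 AG-881 pool with 1 DMSO pool. A block of 18 CpGs at its start, chr17:8433834-8434099, had 31.2% of 218 calls under AG-881 and 49.4% of 166 calls under DMSO (-18.2 points), with intervals apart. The pools of the arms overlapped there, at 37.7%, 43.5%, 23.3% and 22.2% under AG-881 and 46.3%, 33.3%, 61.1% and 51.9% under DMSO. Of all measured blocks 1.49% were lower by at least 10 points with intervals apart. That share was not computed for blocks with a mean of both arms of 20 to 80%, of which 22.8% were lower by at least 10 points. Tbx10 had 7.46% under AG-881 and 19.1% under DMSO (-11.7 points, interval -24.1 to 0.815), and Mga, which pairs a T-box with a Max-binding domain, 19.8% and 29% (-9.15 points, interval -21.0 to 2.87). Tbx21, the regulator of type 1 helper T cells, had 55.7% under AG-881 and 46.2% under DMSO (9.56 points, interval -2.57 to 21.4). Tbx6, Tbx19 and Tbx22 were not measured.

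Genes that work with T-box factors lay on both sides of 0. Of all measured genes, 55.1% were lower and 36.6% higher under AG-881, and 4.5% were lower and 1.64% higher by at least 10 points. Of 10 cardiac partners 8 were measured, 6 lower and 2 higher, with a median difference of -3.10 points. The median was -0.247 points over all measured genes and -2.77 points over those at 40 to 60%. None of the cardiac partners passed 10 points. Gata6 had 55.2% under AG-881 and 63% under DMSO and Smarcd3 16.1% and 13.5%, both within counting error. Of 14 cortical neurogenesis genes 12 were measured, 6 lower and 6 higher; their median difference was 0.258 points. Fezf2, which specifies deep-layer neurons as Tbr1 does for another class, had 62.2% of 82 calls under AG-881 and 76.8% of 95 calls under DMSO (-14.6 points, interval -28.6 to -0.313). Its AG-881 pools had 41.7%, 59.1%, 84.2% and 58.6% and its DMSO pools 82.1%, 62.5%, 80.6% and 73.3%, so pool 3 lay above every DMSO pool. Pax6, which acts ahead of Eomes in cortical progenitors, had 33.8% under AG-881 and 28.9% under DMSO (4.92 points, interval -1.54 to 11.3).

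Of 9 limb and body wall partners 7 were measured, 4 lower and 3 higher, beside 55.1% of all measured genes lower and 36.6% higher. The median difference of these partners was -3.78 points, beside -0.247 points over all measured genes. Shh, the limb polarity signal, had 46.3% of 367 calls under AG-881 and 57.1% of 364 calls under DMSO (-10.8 points, interval -18.1 to -3.39), and Fgf8, the limb ridge signal, 73.8% and 70.2%. The pools of the arms overlapped at Shh, with AG-881 pool 2 at 53.3% and DMSO pool 8 at 49%. Of 9 reported T-box targets 6 were measured, 4 lower and 2 higher; their median difference was -4.60 points. Reln, which Tbr1 controls in early cortical neurons, had 35.9% of 320 calls under AG-881 and 50.6% of 354 calls under DMSO (-14.6 points, interval -22.1 to -6.95). Every AG-881 pool of Reln (25.9%, 38.6%, 43.2% and 33.3%) lay below every DMSO pool (53.6%, 54.7%, 45.7% and 51.9%), as at 1.3% of all genes. Cdkn1a, the cell cycle inhibitor that Tbx2 and Tbx3 repress, had 31% and 28.5% within counting error. In each of these lists the member with the largest decrease and the one with the largest increase is named.

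The identity of the cells cannot be checked against expression in this table. Of 8 glial markers 7 were measured, 5 lower and 2 higher under AG-881, beside 55.1% of all measured genes lower and 36.6% higher. The median difference of these markers was -7.49 points, beside -0.247 points over all measured genes and -2.07 points over those at 20 to 40%. The oligodendrocyte regulator Olig2 had 0 of 138 calls methylated under AG-881, which allows a level of up to 2.17% by a floor of 3 calls (exact interval up to 2.64%), and 11.7% of 154 calls under DMSO. The methylated Olig2 calls came from pools 5 and 6, at 18.8% and 22.5%, while pools 7 and 8 were at 0 like the AG-881 pools. The intermediate filament gene Nes had 86.2% under AG-881 and 78.2% under DMSO. Of 5 vascular and fibroblast markers 3 were measured, with Kdr at 44% under AG-881 and 49% under DMSO and Pecam1 at 94.2% and 93.3%. Of 4 neuron markers 3 were measured, with Rbfox3 at 48.7% under AG-881 and 49.8% under DMSO and Tubb3 at 11.4% and 5.26%. None of the 5 immune markers was measured.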

How the data were processed

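Single cells were profiled by reduced representation bisulfite sequencing after MspI digestion, per the labels' protocols, and positions follow mm10, per the submitters' processing notes. The authors deposited 1 table of methylated fractions with the values 0, 0.5 and 1 for 1416034 positions and 141 cells; as to read counts, aligner and caller, these stand as not given in the sources used here, and the depth behind a call is unknown. MspI favours CpG-dense sequence, and incomplete conversion would raise every level. Column names gave arm and pool but not the well.

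Autosomes 1 to 19 and the X chromosome entered. Neighbouring positions were joined to 1 CpG (1322177 CpGs, 89300 with both strands), and ties, 0.649% of calls, were left out. Of 162786 table positions inside RefSeq promoters, 98.4% fell on a CG of the sequence. Levels rest on 396065 shared CpGs (calls in 5 or more cells per arm), for every protein-coding gene of the RefSeq annotation (GRCm38.p6). Starts came from RefSeq promoters where given (17274 genes), otherwise from the end with more CpGs. Called means a difference of at least 10 points. The interval of a difference is built from those of the arms. The computation was tested on calls simulated as independent, at 1 level per gene and arm. The simulated calls had no spread between cells or pools, so this does not show how the intervals hold under such spread. Python 3.11.15, numpy 2.4.6, pandas 2.3.3 and scipy 1.17.1 were used.

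The members, the gene lists and the settings were chosen with earlier results of these data known. All members are named, as are all measured other T-box genes, the genes with the lowest and highest difference in each other list, and blocks by their level and differences. Alternatives changed the coverage minimum, the weighting, the ties, the merging, the window, the block rules and the pools.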

Additional observations from a re-analysis of the deposited data

How the results depend on the processing

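With 1 culture per arm, counting error and pools are the measures of spread at hand, and 50 calls per arm resolve large differences alone. No paired analysis was possible because the columns carry no replicate number shared by the arms. With at least 10 cells per arm for a CpG, the pooled difference was 6.40 points, that of start windows 7.39 points and the DMSO level 32%. Tbx2 and Tbx15 were then the only members measured, as whole genes and as start windows. Of these, 0 whole genes and 1 start window, that of Tbx2, were lower under AG-881. The DMSO level was 53.3% over every CpG, 51.3% with at least 2 cells per arm and 46.7% with equal weight per CpG. Over every CpG, 2 members passed 10 points, Tbx3 upward and Tbx20 downward. With 500 bp windows, where fewer start windows were measured, 1 start window was lower. Where each arm needed 100 calls and 20 cells, 0 blocks were lower by 10 points, since neither the Tbx3 nor the Tbx2 block was then measured. Without pools 3 and 7, chosen after the values were seen, 1 block was lower and 1 higher by 10 points. Leaving out 1 pool at a time, 0 to 1 members passed 10 points (Tbx1 without pool 2, Tbx18 without pool 7), 0 to 2 blocks were lower (0 without pool 5, 1 without pool 6, 7 or 8) and 0 to 2 higher (2 without pool 1 or 7) by as much. The lower blocks were lost by the rule for measured blocks: without pool 5 the differences were -41.0 points at Tbx3, on 33 DMSO calls, and -29.1 points at Tbx2, on fewer than 10 DMSO cells. Over the pools left out, the pooled gene body difference ranged from -1.71 to 4.02 points (4.02 without pool 2). Apart from the settings named and the coverage minimum, the causes were not tested. Of 167 values of summary results under alternatives, 142 lay within the 95% interval of the value reported or, for counts, within 1.5 times of it. Of 480 differences of single genes and blocks 473 lay within that interval, but 74 had the opposite sign.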
